A study of Mus musculus with 12 samples.

Results

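The complement and coagulation systems were followed through 45 listed mouse genes, among them the C1q chains, the membrane attack components, fibrinogen and the clotting proteases. Members had to reach 10 counts in at least 3 of 12 libraries, and 44 of 45 did, of 14389 genes that passed the same rule and 21878 in the count table. They were divided by their best known source into 35 genes secreted by the liver, 6 made mainly by leukocytes (C1qa, C1qb, C1qc, Cfp, C3ar1 and C5ar1) and 3 of other source (F3, Cd55 and Cd59a). The listed gene left out was Cfd, the adipocyte-made factor D that cleaves factor B, with 14 counts in anti-PD-1 replicate 1, 2 in anti-PD-1 replicate 3 and 0 elsewhere. Of the 35 liver genes, C1ra, C2, C4b, Cfb, Serping1, Clu and Pros1 are also well known to be made by other cells.

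Total RNA was sequenced from mouse hepatocellular carcinoma samples labelled as Hepa1-6, a mouse hepatoma line, with liver as the tissue. The 4 groups of 3 libraries were untreated, mIFNalpha, anti-PD-1 antibody, and mIFNalpha combined with that antibody, here called the combination. Interferon alpha is an antiviral cytokine, and PD-1 is an inhibitory receptor of T cells. The series is titled as liver tumor and its design text speaks of cells. The labels give no host, age, dose or time, so they do not settle whether tumors or cultures were sequenced. Markers of other cell types, given below, were read in every library, so the samples were not the hepatoma line alone. The labels do not say that replicates came from separate animals or cultures, and p-values then measure only the spread between these samples. That spread was more than counting error alone gives. Between 2 libraries of a group the chi-square per degree of freedom ran from 14.6 (combination replicates 2 and 3) to 242 (anti-PD-1 replicates 2 and 3). Whether its source was biological or lay in the preparation was not tested. Columns were matched to samples by name, and each group mean rests on n = 3 libraries.

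Complement is a cascade of plasma proteases. It starts with C1q bound to antibody, with lectins bound to sugars, or with the alternative loop, and ends in the membrane attack complex of C5 to C9. Coagulation starts when tissue factor meets factor VII and ends when thrombin turns fibrinogen into fibrin, which plasmin dissolves. Hepatocytes secrete most of these proteins into plasma, whereas macrophages make C1q, and myeloid cells carry the receptors for the anaphylatoxins C3a and C5a.

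Library totals ranged from 31.3 to 38.5 M (mega) counts, and 14330 genes were tested. Values by library are CPM, counts per M scaled by TMM, a method that sets libraries to a common scale. The hepatoma marker Afp had 5703 to 11180 CPM and albumin 6866 to 15968 CPM across the 12 libraries. Defining markers of other cells were also present in every library, at 9.10 to 128 CPM for the macrophage gene Adgre1 and 1.05 to 25.5 CPM for the T cell gene Cd3e. The endothelial gene Pecam1 had 36.6 to 119 CPM and the fibroblast gene Col1a1 173 to 1498 CPM. The libraries thus held RNA of cells other than the hepatoma line. The summed adult hepatocyte markers (17 genes) were 1869 CPM in mIFNalpha replicate 1, 3817 in anti-PD-1 replicate 3 and 2236 in combination replicate 1, and 365 to 863 in the other libraries. In 28 of 35 liver-secreted members (80.0%) and 5 of 6 leukocyte-made members, anti-PD-1 replicate 3 was the highest of all libraries, as it was in 25.6% of all tested genes. Male-biased liver genes (6 genes) summed to 1.93 to 13.9 CPM in untreated and 55.02 to 346 CPM in combination libraries. Female-biased liver genes (8 genes) summed to 10.5 to 17.02 CPM in untreated and 0.0827 to 0.479 CPM in combination libraries. In anti-PD-1 libraries these sums were 26.3 to 787 and 0.162 to 12.6 CPM, and in mIFNalpha libraries 2.79 to 73.8 and 1.86 to 52.2 CPM. The Y-linked genes (4 genes) summed to 9.95 to 21.8 CPM in untreated, 15.4 to 27.3 in mIFNalpha, 26.2 to 94.4 in anti-PD-1 and 30.6 to 52.02 in combination libraries. The sums also differed between libraries of 1 group. In mIFNalpha replicates 1 to 3, male-biased genes summed to 2.79, 73.8 and 68.7 CPM and female-biased genes to 52.2, 1.86 and 2.04 CPM. In anti-PD-1 replicates 1 to 3, these sums were 26.3, 117 and 787 CPM and 12.6, 0.166 and 0.162 CPM. The part of these markers in the results was not tested.

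**Figure D1:**
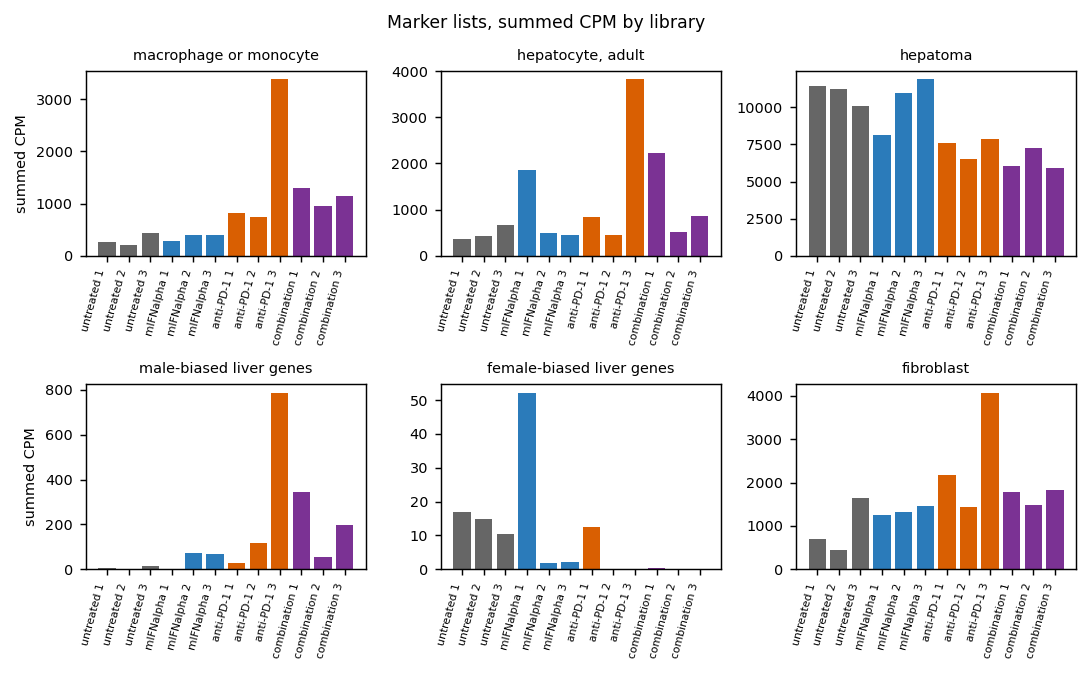
Summed CPM of 6 marker lists (vertical axes, linear from 0) in each of the 12 libraries (bars, coloured by group). Macrophage or monocyte markers were 212 to 434 in untreated and 750 to 3374 in anti-PD-1 libraries, adult hepatocyte markers stood highest in mIFNalpha 1, anti-PD-1 3 and combination 1, and hepatoma markers were lower in every anti-PD-1 and combination library than in any untreated one.

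Levels between genes were compared as the deposited FPKM, fragments per kilobase of transcript and M fragments. In untreated libraries the 3 fibrinogen chains led the members: Fgb had 1357 ± 116 FPKM, Fgg 522 ± 31.8 and Fga 300 ± 56.2 (mean ± SD, n = 3). Fgb was above Fgg, and Fgg above Fga, in each untreated library. Next came Clu, an extracellular chaperone that blocks membrane attack (232 ± 37.5 FPKM), then Cfb, the protease of the alternative pathway (139 ± 17.5), and C4b, an opsonin precursor (118 ± 13.9). The ranges of Cfb and C4b overlapped. The lowest were Cd55, a membrane inhibitor of the convertases (0.193 ± 0.144 FPKM), Masp2, a lectin pathway protease (0.742 ± 0.578), and C8b, a chain of the membrane attack complex (0.786 ± 0.421), each of which overlapped its neighbour in this order. The members also differed in how far they varied. The highest library was 42.4 times the lowest for Mbl1, 39.6 times for C8b and 38.98 times for C8a on the CPM scale, but 1.75 times for Pros1, the cofactor of activated protein C, and 1.79 times for Proc, its precursor.

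**Figure D2:**
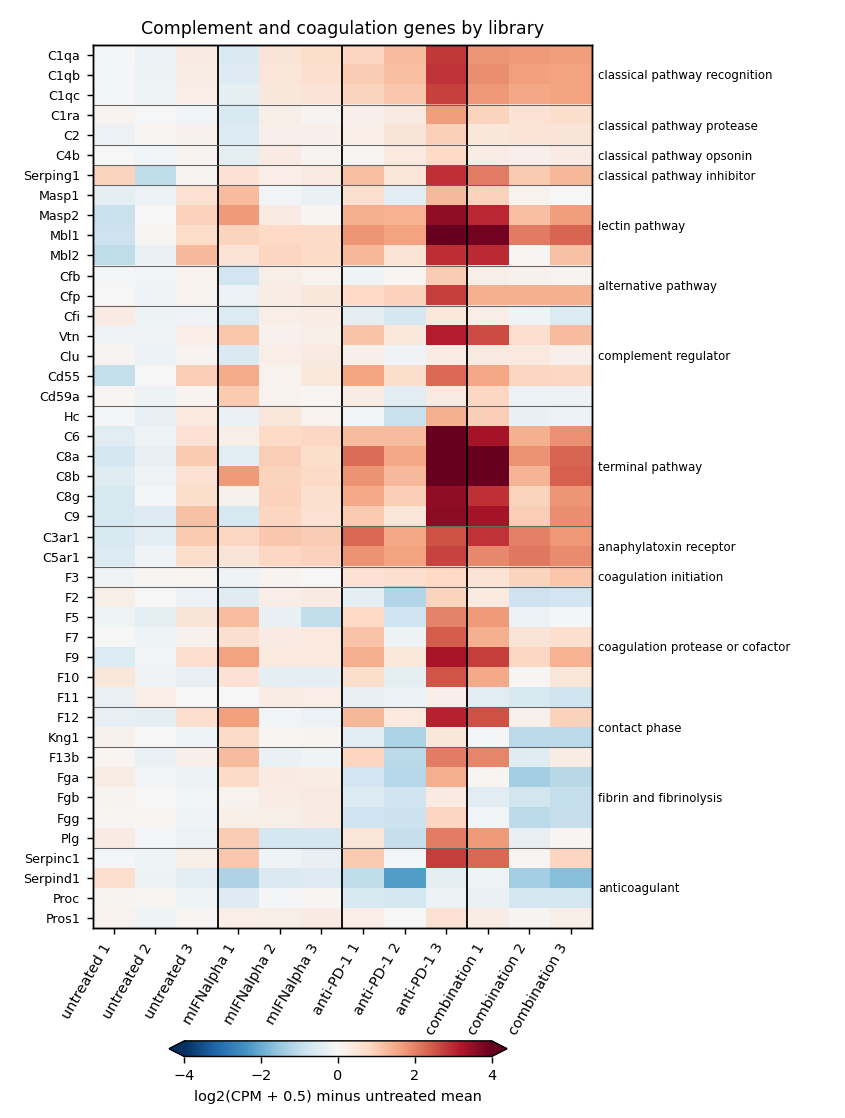
Colour shows log2(CPM + 0.5) of each member that passed the count rule (rows, by role) in each library (columns), minus the mean of the 3 untreated libraries; red is higher, blue lower, and the scale is clipped at its ends. The columns of anti-PD-1 3 and combination 1 are red in the terminal and lectin pathway rows, and the fibrinogen rows are blue in the other anti-PD-1 and combination libraries.

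The leukocyte-made members rose with anti-PD-1. All 6 passed the test against untreated libraries, in a comparison where 15% of all tested genes were called, 9.88% higher and 5.09% lower, and their 6 ranges did not overlap between the groups, as for 17.5% of all genes on the higher side. At the middle of the 6 stood a log2 fold change of 1.93 (median), against -0.01 over all genes. In the combination 5 of 6 rose, where 13.1% of all genes were called, 7.99% higher and 5.08% lower, with a median of 1.70, and the 6 ranges again did not overlap, beside 24.7% of all genes on the higher side. The member not called was Cfp (1.44 ± 0.45 SE, edgeR adjusted p = 0.059).

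C1qa, C1qb and C1qc encode the A, B and C chains of C1q, the molecule that recognises antibody and dying cells, and lie together in 18.7 kb of chromosome 4 (GRCm38, 136880129 to 136898803). C1qa had 67.5, 61.04 and 89.3 CPM in untreated replicates 1 to 3, 48.4, 103 and 118 in mIFNalpha, 129, 173 and 516 in anti-PD-1, and 244, 234 and 230.4 in combination. C1qb had 66.3, 61.2 and 87.2 CPM in untreated replicates 1 to 3, 49.3, 99.3 and 112 in mIFNalpha, 143, 163 and 530.0 in anti-PD-1, and 258, 220.4 and 219 in combination. C1qc had 67.02, 63.6 and 85.4 CPM in untreated replicates 1 to 3, 54.4, 98.7 and 105 in mIFNalpha, 132, 152 and 478 in anti-PD-1, and 238, 210.4 and 219 in combination. For each chain every anti-PD-1 and combination library stood above every untreated and mIFNalpha library, and anti-PD-1 replicate 3 was far above the rest. The log2 fold change with anti-PD-1 was 1.91 ± 0.48 SE, adjusted p = 0.029 for C1qa, 1.96 ± 0.47, adjusted p = 0.026 for C1qb and 1.82 ± 0.44, adjusted p = 0.026 for C1qc. With the combination it was 1.70 ± 0.47, adjusted p = 0.042, 1.70 ± 0.47, adjusted p = 0.04 and 1.63 ± 0.44, adjusted p = 0.037 for the same chains in that order. The proportions of the chains hardly moved: the FPKM ratio of C1qa to C1qb was 0.899 to 1.06 and that of C1qc to C1qb 0.756 to 0.909 over all 12 libraries.

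Because C1qb and C1qc moved together, the 250 bases before their RefSeq starts (GRCm38.p6) are shown, both from the minus strand of chromosome 4, chr4:136886201-136886450 for C1qb and chr4:136892915-136893164 for C1qc. Capitals mark the match to the PU.1 motif GAGGAAGT, read on either strand, which 2.44% of all 32851 promoter windows of this length held.
C1qb: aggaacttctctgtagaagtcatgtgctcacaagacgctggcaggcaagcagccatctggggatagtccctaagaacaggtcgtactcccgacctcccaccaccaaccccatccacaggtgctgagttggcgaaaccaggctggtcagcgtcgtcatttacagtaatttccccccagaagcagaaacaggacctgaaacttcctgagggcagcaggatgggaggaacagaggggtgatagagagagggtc
C1qc: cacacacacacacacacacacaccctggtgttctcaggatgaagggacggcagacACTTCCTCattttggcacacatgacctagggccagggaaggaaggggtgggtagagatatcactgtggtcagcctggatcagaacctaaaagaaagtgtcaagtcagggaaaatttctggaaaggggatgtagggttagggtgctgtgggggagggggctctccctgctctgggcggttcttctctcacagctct
C1qc held it once, with its first base 195 bases before the start and read on the opposite strand, and C1qb did not hold these letters. Of 34 members with a promoter window, C1qc alone matched. The other motifs searched on both strands were HNF1 (GTTAAT, any base and ATT, in 0.371% of all windows), HNF4 (CAAAGTCCA, 0.384%), C/EBP (TTGCNNAA, 9.56%), the interferon response element (GAAA, any 2 bases and GAAA, 2.98%), the STAT site called GAS (TTCNNNGAA, 7.02%), AP-1 (TGANTCA, 6.75%) and the TATA box (TATAAA, 12.4%), where N is any base. A match is a description of letters only.

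**Figure D3:**
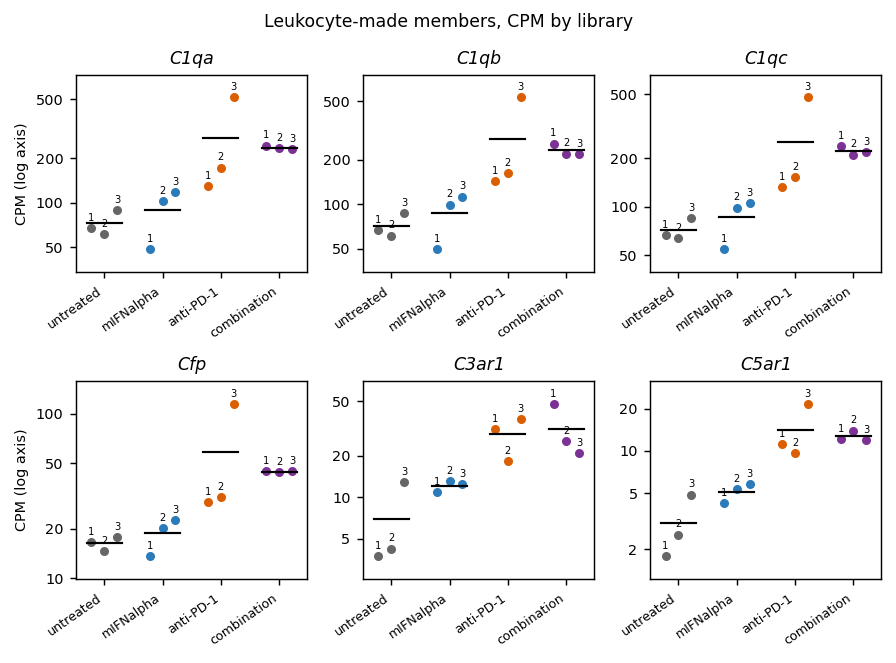
CPM of the 6 leukocyte-made members by group (log axis); points are libraries with their replicate numbers and the horizontal bars are arithmetic means of 3. All anti-PD-1 and combination points lie above all untreated points in each panel.

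Cfp encodes properdin, which stabilises the alternative pathway convertase and comes from neutrophils and monocytes. It had 16.5, 14.7 and 17.8 CPM in untreated replicates 1 to 3, 13.6, 20.1 and 22.5 in mIFNalpha, 28.9, 31.3 and 114 in anti-PD-1, and 44.7, 44.1 and 44.8 in combination. Each anti-PD-1 and combination value was above every untreated and mIFNalpha value, and the change with anti-PD-1 was 1.83 ± 0.46, adjusted p = 0.029. C3ar1 encodes the receptor of C3a and had 3.73, 4.23 and 12.9 CPM in untreated replicates 1 to 3, 10.8, 13.04 and 12.5 in mIFNalpha, 31.2, 18.3 and 36.9 in anti-PD-1, and 47.5, 25.5 and 20.8 in combination. Untreated replicates 1 and 2 were the lowest, and untreated replicate 3 lay within the mIFNalpha values. C3ar1 changed by 2.04 ± 0.47, adjusted p = 0.024 with anti-PD-1 and by 2.16 ± 0.47, adjusted p = 0.022 with the combination. C5ar1, the C5a receptor of neutrophils and macrophages, had 1.78, 2.54 and 4.89 CPM in untreated replicates 1 to 3, 4.23, 5.38 and 5.79 in mIFNalpha, 11.2, 9.64 and 21.5 in anti-PD-1, and 12.1, 13.96 and 12 in combination. It had the lowest adjusted p of the members in the anti-PD-1 comparison, with a log2 change of 2.18 ± 0.38, adjusted p = 0.018, and in the combination the change was 2.03 ± 0.38, adjusted p = 0.015.

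Lists of macrophage or monocyte, neutrophil and T cell markers moved with these genes, whereas the sums of Kupffer cell markers overlapped between untreated and anti-PD-1 libraries. The 10 macrophage or monocyte markers summed to 212 to 434 CPM in untreated, 281 to 405 in mIFNalpha, 750 to 3374 in anti-PD-1 and 957 to 1302 in combination libraries. Of them 8 were called higher with anti-PD-1 and 4 with the combination. Over all genes 9.88% and 7.99% were called higher in these comparisons, which are the shares to set beside each marker list here. The defining gene Adgre1 was 13.1 to 24.9 CPM in untreated and 33.8 to 128 CPM in anti-PD-1 libraries. For Kupffer cells, the resident macrophages of liver, the 4 markers summed to 8.46 to 36.9 CPM in untreated and 27.97 to 40.3 in mIFNalpha libraries. In anti-PD-1 libraries they summed to 21.3 to 212 CPM and in combination libraries to 57.2 to 80.9, with 1 and 0 called higher. The 6 neutrophil markers summed to 29.5 to 45.5 CPM in untreated, 43.4 to 79.3 in mIFNalpha, 100.4 to 212 in anti-PD-1 and 110 to 188 in combination libraries, with 4 and 5 called higher. The 8 T cell markers summed to 21.2 to 23.7 CPM in untreated, 10.96 to 38.1 in mIFNalpha, 46.1 to 234 in anti-PD-1 and 76.3 to 96.3 in combination libraries. All 8 were called higher with anti-PD-1 (median log2 fold change 2.52) and 3 with the combination. The 8 ranges did not overlap untreated ones in either, beside 17.5% and 24.7% of all genes on the higher side. Of the 7 fibroblast markers 3 were called higher with anti-PD-1 and 0 with the combination, and their sums were 438 to 1638 CPM in untreated, 1426 to 4071 in anti-PD-1 and 1483 to 1828 in combination libraries. In bulk RNA, more cells of a type and more RNA per cell cannot be told apart, and the part of these cells in the results was not tested. The 6 calls with anti-PD-1 became 0 when untreated replicate 1 or 2 was left out or when the fit held only the groups compared, and 2 (C5ar1 and Cfp) without anti-PD-1 replicate 3. The 5 calls with the combination became 0 without untreated replicate 1 or 2 or combination replicate 3, 1 without combination replicate 1, and 2 without combination or mIFNalpha replicate 2. The calls over all genes fell in these fits as well. With anti-PD-1 they went from 1416 higher and 730 lower to 4 and 6 without untreated replicate 1, to 5 and 13 without untreated replicate 2, to 377 and 182 without anti-PD-1 replicate 3, and to 0 and 0 with only the groups compared, where 3834 genes had an unadjusted p below 0.05. With the combination the 1145 genes called higher became 46 and 65 without untreated replicates 1 and 2, 228, 359 and 87 without combination replicates 1, 2 and 3, and 779 without mIFNalpha replicate 2.

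Of the 35 liver-secreted members, 4 rose with anti-PD-1 (Mbl1, C6, C8a and C8b) and 0 fell by edgeR, beside the 9.88% and 5.09% of all genes. With anti-PD-1 the 35 genes had a median of 1.01 on the log2 scale, with 28 of 35 fitted higher against 48.7% of all genes. The liver-secreted member with the smallest p on the lower side was Proc (unadjusted p = 0.021), the only one there below 0.05, and DESeq2 and limma also called 0 lower. With the combination Mbl1 rose and F11 fell, beside 7.99% and 5.08% of all genes, and the median of the 35 genes was 0.73. Of these 35 genes 26 were fitted higher, and of all 44 members 35, against 48.8% of all genes. The Mbl1 call with the combination was lost without untreated replicate 1 or 2 or any combination library. The count of liver-secreted members called higher there became 2 without untreated replicate 3, 4 without anti-PD-1 replicate 2 and 10 without anti-PD-1 replicate 3, where 1456, 1312 and 1920 of all genes were called higher. The 4 calls with anti-PD-1 became 0 without untreated replicate 1, untreated replicate 2 or anti-PD-1 replicate 3, or in a fit of only the groups compared. They became 1 without mIFNalpha replicate 2 or 3 or combination replicate 3, 2 without untreated replicate 3, 7 without anti-PD-1 replicate 1 and 13 without anti-PD-1 replicate 2. Over all genes the calls on the higher side in these fits numbered 1119 and 1211 without mIFNalpha replicates 2 and 3, 1019 without combination replicate 3, 1585 without untreated replicate 3, and 1580 and 2066 without anti-PD-1 replicates 1 and 2.

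The 6 terminal pathway members, which assemble the membrane attack complex, had a median log2 fold change of 2.70 with anti-PD-1. Of these 3 rose, beside 9.88% of all genes. With the combination the median was 2.34 and 0 of 6 were called by edgeR. An unadjusted p below 0.05 was reached by 5 of them and by 4581 of all 14330 genes. DESeq2 called C6, C8a, C8b and C8g higher, among 1784 of all genes called higher. C6, the component that binds C5b, had 3.599, 4.37 and 7.76 CPM in untreated replicates 1 to 3, 5.98, 9.09 and 9.15 in mIFNalpha, 12.8, 12.7 and 87.7 in anti-PD-1, and 54.4, 14.2 and 18.9 in combination. All anti-PD-1 and combination values exceeded all untreated and mIFNalpha values, with anti-PD-1 replicate 3 and combination replicate 1 far above the rest. C6 changed by 2.83 ± 0.82, adjusted p = 0.041 with anti-PD-1 and 2.47 ± 0.81, adjusted p = 0.067 with the combination. C8a and C8b encode the alpha and beta chains of C8 and lie in 110.1 kb of chromosome 4 (104766317 to 104876398). C8a had 4.54, 5.99 and 16.3 CPM in untreated replicates 1 to 3, 5.53, 15.8 and 12.8 in mIFNalpha, 37.8, 23.7 and 177 in anti-PD-1, and 136, 28.2 and 40.9 in combination, and a predicted gene, Gm17662, overlaps it on the other strand, so that its reads are uncertain. C8b had 1.72, 2.302 and 4.25 CPM in untreated replicates 1 to 3, 9.67, 5.29 and 4.74 in mIFNalpha, 10.3, 7.12 and 67.98 in anti-PD-1, and 48.4, 7.503 and 15.6 in combination. For both genes the 2 highest libraries were anti-PD-1 replicate 3 and combination replicate 1. C8a changed by 3.14 ± 0.89, adjusted p = 0.039 with anti-PD-1 and 2.93 ± 0.89, adjusted p = 0.052 with the combination. C8b changed by 3.35 ± 0.98, adjusted p = 0.044 and 3.10 ± 0.98, adjusted p = 0.06 in these comparisons.

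The starts of C8a and C8b are shown as the pair that changed most among the called members, again as 250 bases before the RefSeq start (GRCm38.p6; chr4:104876399-104876648 on the minus strand and chr4:104766067-104766316 on the plus strand). Capitals mark the GAS letters TTCNNNGAA.
C8a: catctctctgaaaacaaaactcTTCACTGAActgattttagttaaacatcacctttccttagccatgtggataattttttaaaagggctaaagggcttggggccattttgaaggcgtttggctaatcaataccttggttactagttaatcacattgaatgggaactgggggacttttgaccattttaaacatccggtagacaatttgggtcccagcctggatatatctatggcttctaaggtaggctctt
C8b: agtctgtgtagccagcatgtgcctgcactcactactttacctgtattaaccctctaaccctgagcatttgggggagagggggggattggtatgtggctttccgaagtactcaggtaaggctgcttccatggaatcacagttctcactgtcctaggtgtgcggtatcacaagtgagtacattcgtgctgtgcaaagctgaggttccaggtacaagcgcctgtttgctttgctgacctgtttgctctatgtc
C8a held the GAS letters at 228 bases before its start, and C8b held none of the 8 motifs searched. Their FPKM ratio, C8a over C8b, was 0.329 in mIFNalpha replicate 1 and 1.64 to 2.41 in the other 11 libraries, so C8b was the more abundant chain in that library alone. C9, which forms the pore, had 3.696, 3.99 and 13.99 CPM in untreated replicates 1 to 3, 3.66, 11.3 and 9.41 in mIFNalpha, 12.9, 8.56 and 77.3 in anti-PD-1, and 64.1, 12.2 and 23.2 in combination. It overlapped between untreated libraries and each treated group, and its change with anti-PD-1 was 2.17 ± 0.93, adjusted p = 0.13. Relative to C8a it was lower in every anti-PD-1 and combination library than in any other: the FPKM ratio of C9 to C8a was 1.27 to 1.67 in untreated, 1.35 to 1.44 in mIFNalpha, 0.594 to 0.843 in anti-PD-1 and 0.757 to 1.001 in combination libraries. C8g, the small C8 chain, had the same order of libraries at the top (1.07, 1.83 and 3.48 CPM in untreated replicates 1 to 3, 2.25, 4.15 and 3.302 in mIFNalpha, 6.43, 4.295 and 27.8 in anti-PD-1, and 18.1, 4.01 and 7.86 in combination) and a change of 2.56 ± 0.81, adjusted p = 0.055 with anti-PD-1, and Fbxw5 overlaps it on the other strand. Hc, the mouse C5, had 74.3, 61.6 and 101 CPM in untreated replicates 1 to 3, 64.2, 106 and 85.9 in mIFNalpha, 71.7, 41.7 and 214 in anti-PD-1, and 153, 62.8 and 65.7 in combination and overlapped in all groups.

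The lectin pathway is opened by mannose-binding lectins and their proteases. Mbl1, mannose-binding lectin A, had 1.01, 2.34 and 3.94 CPM in untreated replicates 1 to 3, 4.44, 4.12 and 4.06 in mIFNalpha, 8.47, 7.704 and 42.6 in anti-PD-1, and 38.1, 10.6 and 12.9 in combination. Its anti-PD-1 and combination values were all above its untreated and mIFNalpha values. It was the only liver-secreted member called higher in both comparisons with untreated libraries, by 2.99 ± 0.80, adjusted p = 0.033 with anti-PD-1 and 3.07 ± 0.80, adjusted p = 0.035 with the combination. Mbl2, mannose-binding lectin C, had 2.63, 4.81 and 15.1 CPM in untreated replicates 1 to 3, 8.799, 11.04 and 10.2 in mIFNalpha, 15.5, 8.76 and 48.7 in anti-PD-1, and 50.3, 6.22 and 13.8 in combination and overlapped between untreated libraries and each treated group (1.68 ± 0.85, adjusted p = 0.19 with anti-PD-1). Masp2, the protease that cleaves C4, had 1.297, 2.81 and 5.77 CPM in untreated replicates 1 to 3, 10.3, 3.72 and 2.96 in mIFNalpha, 8.695, 8.26 and 38.9 in anti-PD-1, and 26.4, 7.18 and 10.2 in combination. It changed by 2.48 ± 0.82, adjusted p = 0.065 with anti-PD-1 and did not overlap untreated libraries, but Tardbp overlaps it on the other strand. Masp1, the protease that activates Masp2, had 11.5 to 39.1 CPM over all libraries with no group apart.

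Of the classical and alternative pathway members in the liver-secreted list (C1ra, C2, C4b, Cfb and Serping1), 0 were called by edgeR against untreated libraries. C1ra, a protease of C1, had 66.3, 63 and 57.01 CPM in untreated replicates 1 to 3, 40.5, 73.04 and 66.5 in mIFNalpha, 71.8, 80.1 and 199.5 in anti-PD-1, and 114, 92.8 and 101 in combination, which a near-identical copy, C1rb, makes uncertain, and its change with anti-PD-1 was 0.91 ± 0.35, adjusted p = 0.095. C2, the protease of the C4b2 convertase, had 124, 155 and 165 CPM in untreated replicates 1 to 3, 99.9, 169 and 169 in mIFNalpha, 177, 208 and 283 in anti-PD-1, and 203, 216 and 212 in combination. Every anti-PD-1 and combination value of C2 lay above all other values, and its changes were 0.59 ± 0.21, adjusted p = 0.083 and 0.50 ± 0.21, adjusted p = 0.13, though Gm20547 spans it and Cfb. C4b, which resembles C4a, had a change of 0.44 ± 0.20, adjusted p = 0.15 with anti-PD-1 and Cfb one of 0.41 ± 0.30, adjusted p = 0.36. Serping1, the inhibitor of C1 and kallikrein, had 105, 27.9 and 61.2 CPM in untreated replicates 1 to 3, 84.6, 68.2 and 72.5 in mIFNalpha, 130.2, 79.1 and 429 in anti-PD-1, and 238, 117 and 141 in combination, and combination values did not overlap untreated ones. Its change was 1.71 ± 0.61, adjusted p = 0.078 with anti-PD-1 and 1.35 ± 0.60, adjusted p = 0.15 with the combination.

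Regulators varied in different ways. Vtn, vitronectin, which blocks pore insertion, had 64.2, 64.6 and 84.9 CPM in untreated replicates 1 to 3, 153, 79.1 and 82.8 in mIFNalpha, 158, 94.5 and 628 in anti-PD-1, and 435, 112 and 172 in combination. It did not overlap untreated libraries with anti-PD-1 (2.04 ± 0.68, adjusted p = 0.066) or the combination (1.75 ± 0.68, adjusted p = 0.11), and mIFNalpha replicate 1 was as high as some treated libraries. Clu was 440 to 849 CPM in all libraries and changed by 0.31 ± 0.21, adjusted p = 0.34 with the combination. Cfi, the protease that inactivates C4b, was 76.6 to 164 CPM and overlapped in all groups (-0.15 ± 0.32, adjusted p = 0.77 with anti-PD-1). Cd55 had 0.811, 2.03 and 4.55 CPM in untreated replicates 1 to 3, 6.64, 2.32 and 2.91 in mIFNalpha, 7.17, 3.63 and 11.8 in anti-PD-1, and 6.99, 4.19 and 4.03 in combination and a change of 1.58 ± 0.60, adjusted p = 0.095 with anti-PD-1. Cd59a, the membrane inhibitor of C9, which has the copy Cd59b, had 6.71, 5.42 and 6.78 CPM in untreated replicates 1 to 3, 13.4, 6.98 and 6.63 in mIFNalpha, 7.87, 4.46 and 8.28 in anti-PD-1, and 11.6, 5.29 and 5.41 in combination with no group apart. Cd59a alone of the 34 members with a promoter window held the interferon response letters.

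**Figure D4:**
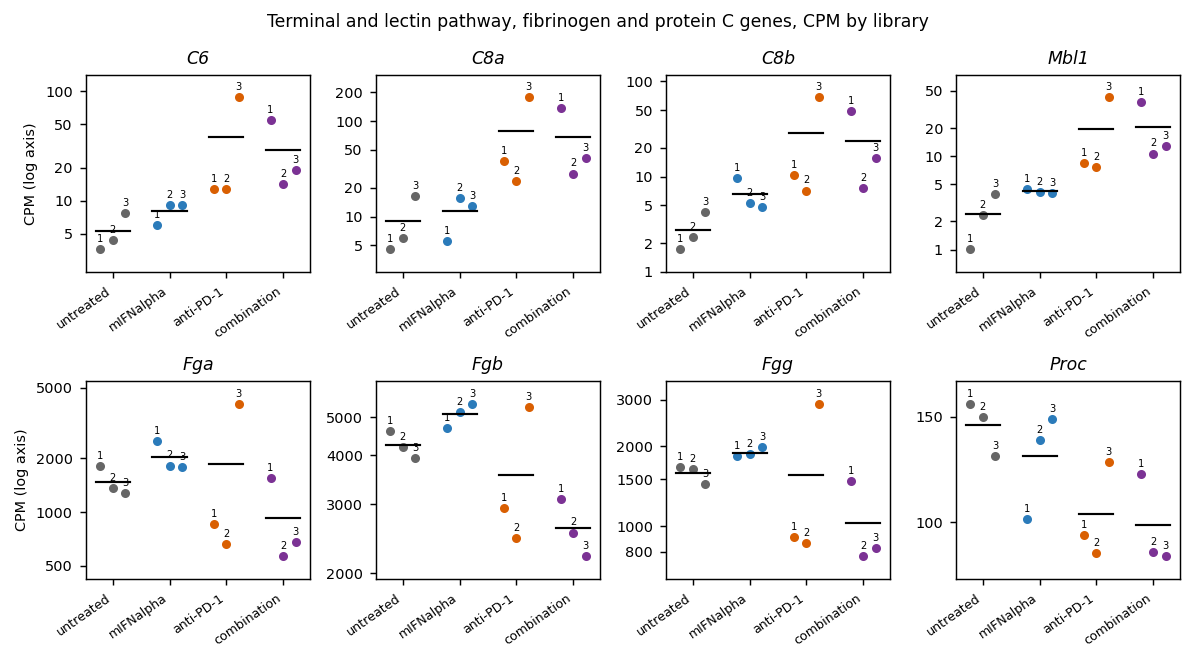
CPM of C6, C8a, C8b, Mbl1, the fibrinogen chains and Proc by group (log axes with different ranges); points are libraries with replicate numbers and the horizontal bars are arithmetic means of 3. Terminal and lectin genes are higher in all anti-PD-1 and combination libraries than in untreated ones, and the fibrinogen chains are lower in anti-PD-1 1 and 2 and combination 2 and 3 than in any untreated library.

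F3 encodes tissue factor, the membrane protein that starts coagulation, and was the coagulation gene that passed in most comparisons. It had 6.65, 7.58 and 7.82 CPM in untreated replicates 1 to 3, 6.58, 8.04 and 7.29 in mIFNalpha, 11.1, 12.1 and 13.02 in anti-PD-1, and 10.9, 13.9 and 16.6 in combination. Every anti-PD-1 and combination value was above every untreated and mIFNalpha value, with no library far from the others. F3 rose by 0.72 ± 0.18, adjusted p = 0.027 with anti-PD-1, by 0.91 ± 0.17, adjusted p = 0.016 with the combination, and by 0.92 ± 0.17, adjusted p = 0.036 when the combination was compared with mIFNalpha. In that last comparison 0.803% of all genes were called higher and 0.851% lower. The call with anti-PD-1 was lost without untreated replicate 1 or 2 or anti-PD-1 replicate 3 and in a fit of only the groups compared. That with the combination was lost without untreated replicate 1 or 2 or combination replicate 3, and that against mIFNalpha without untreated replicate 2 or any mIFNalpha or combination library. The 250 bases before its RefSeq start (GRCm38.p6, chr3:121723287-121723536, plus strand) are shown because F3 held 2 AP-1 matches, in capitals, close to each other.
F3: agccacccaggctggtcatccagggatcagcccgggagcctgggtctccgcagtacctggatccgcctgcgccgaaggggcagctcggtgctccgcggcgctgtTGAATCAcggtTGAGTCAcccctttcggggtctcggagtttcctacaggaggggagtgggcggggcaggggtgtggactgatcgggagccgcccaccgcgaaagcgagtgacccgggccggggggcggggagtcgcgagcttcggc
They began 146 and 135 bases before the start. AP-1 letters were found in 5 of 34 members (C3ar1, C8g, F2, F3 and Fgb) and in 6.75% of all windows.

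The proteases and cofactors that follow tissue factor were mostly not called. F2, prothrombin, had 246, 212 and 179 CPM in untreated replicates 1 to 3, 150.3, 252 and 266 in mIFNalpha, 164, 93.7 and 394 in anti-PD-1, and 278, 117 and 124 in combination. Anti-PD-1 replicates 1 and 2 and combination replicates 2 and 3 were below every untreated library, and anti-PD-1 replicate 3 above all of them (0.03 ± 0.48, adjusted p = 0.97 with anti-PD-1 and -0.29 ± 0.48, adjusted p = 0.71 with the combination). F7, the partner of tissue factor, had 5.58, 4.87 and 6.29 CPM in untreated replicates 1 to 3, 8.86, 7.09 and 7.47 in mIFNalpha, 12.9, 4.71 and 31.8 in anti-PD-1, and 15.8, 8.23 and 9.19 in combination and did not overlap between untreated and combination libraries (0.98 ± 0.55, adjusted p = 0.24). F9, the hemophilia B factor, had 2.205, 3.15 and 5.804 CPM in untreated replicates 1 to 3, 11.5, 4.66 and 4.74 in mIFNalpha, 10.5, 4.77 and 38.6 in anti-PD-1, and 26.4, 6.602 and 9.99 in combination and likewise did not overlap there (1.94 ± 0.81, adjusted p = 0.13). F5, F10, F12 and F13b, a cofactor, a protease, the contact factor and the carrier chain of factor XIII, reached their highest library in anti-PD-1 replicate 3 and overlapped between untreated and anti-PD-1 libraries. Their log2 changes with anti-PD-1 were 1.02 ± 0.77, adjusted p = 0.37 for F5 and 1.43 ± 0.66, adjusted p = 0.15 for F10. Those of the other two were 1.99 ± 0.84, adjusted p = 0.12 for F12 and 1.12 ± 0.82, adjusted p = 0.36 for F13b.

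F11, the contact-phase protease that activates factor IX, went the other way. It had 30.3, 43.4 and 35.9 CPM in untreated replicates 1 to 3, 36.9, 44.6 and 43.6 in mIFNalpha, 29.6, 30.6 and 41.5 in anti-PD-1, and 26.7, 23.6 and 20.5 in combination. All combination values were below all values of the other groups, and anti-PD-1 values overlapped untreated ones. F11 fell in the combination against untreated libraries (-0.63 ± 0.17, adjusted p = 0.04) and against mIFNalpha (-0.82 ± 0.17, adjusted p = 0.044), and differed by -0.52 ± 0.17, adjusted p = 0.9 from anti-PD-1. Leaving out untreated replicate 1, 2 or 3, mIFNalpha replicate 2 or any combination library took the call against untreated libraries away, and the call against mIFNalpha was lost without anti-PD-1 replicate 2 or any mIFNalpha or combination library, while the fold change stayed below 0 in all of these fits. The promoters of F11 (chr8:45262032-45262281) and Fgb (chr3:83049864-83050113), both on the minus strand in GRCm38.p6, are shown with C/EBP, GAS and AP-1 matches in capitals. F11 was called lower in the combination. Fgb was lower in every combination library than in any untreated one, but edgeR on all libraries did not call it.
F11: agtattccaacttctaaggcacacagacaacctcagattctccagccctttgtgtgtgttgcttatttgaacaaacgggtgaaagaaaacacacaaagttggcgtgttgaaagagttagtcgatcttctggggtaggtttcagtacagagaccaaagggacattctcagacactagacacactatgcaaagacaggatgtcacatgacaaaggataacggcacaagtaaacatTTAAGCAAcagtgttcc
Fgb: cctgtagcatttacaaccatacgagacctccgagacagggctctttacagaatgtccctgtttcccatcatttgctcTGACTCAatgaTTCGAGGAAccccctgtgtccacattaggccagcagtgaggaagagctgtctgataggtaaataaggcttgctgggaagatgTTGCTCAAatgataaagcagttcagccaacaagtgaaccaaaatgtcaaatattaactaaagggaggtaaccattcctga
F11 held 1 C/EBP match, 17 bases before the start. Fgb held C/EBP at 80, GAS at 162 and AP-1 at 173 bases before the start. C/EBP letters were found in 5 of 34 members (C9, F11, F9, Fga and Fgb), against 9.56% of all windows.

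Fibrinogen is a hexamer of paired alpha, beta and gamma chains, encoded by Fga, Fgb and Fgg within 42.1 kb of chromosome 3 (83007724 to 83049863). Fga had 1805, 1358 and 1271 CPM in untreated replicates 1 to 3, 2499.8, 1824 and 1789 in mIFNalpha, 859, 664 and 4037 in anti-PD-1, and 1548, 565 and 681 in combination. Fgb had 4610.2, 4203 and 3931 CPM in untreated replicates 1 to 3, 4700.1, 5159 and 5404 in mIFNalpha, 2926, 2459 and 5300.4 in anti-PD-1, and 3088, 2539 and 2210.4 in combination. Fgg had 1674, 1636 and 1439 CPM in untreated replicates 1 to 3, 1842, 1864 and 1979 in mIFNalpha, 907, 866 and 2884 in anti-PD-1, and 1478, 770.3 and 828 in combination. Anti-PD-1 replicates 1 and 2 and combination replicates 2 and 3 were below every untreated and mIFNalpha library for each chain, while anti-PD-1 replicate 3 was above every untreated library. Fgb was lower in all 3 combination libraries (-0.70 ± 0.24, adjusted p = 0.075). With anti-PD-1 the changes were 0.33 ± 0.60, adjusted p = 0.73 for Fga, -0.25 ± 0.24, adjusted p = 0.48 for Fgb and -0.03 ± 0.41, adjusted p = 0.97 for Fgg. The proportion of Fga to Fgb was highest in the libraries rich in hepatocyte markers. The FPKM ratio of Fga to Fgb was 0.475 in anti-PD-1 replicate 3, 0.340 in mIFNalpha replicate 1 and 0.318 in combination replicate 1, and 0.142 to 0.245 in the other libraries. The ratio of Fgg to Fgb was 0.537 in anti-PD-1 replicate 3 and 0.495 in combination replicate 1, but 0.402 in mIFNalpha replicate 1, within the 0.314 to 0.410 of the other libraries.

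**Figure D5:**
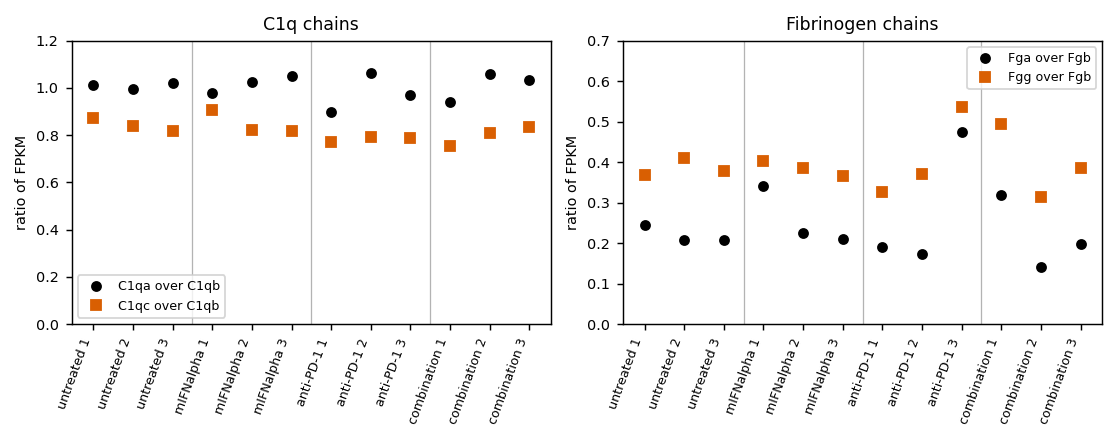
Ratios of FPKM between chains of one protein (vertical axes, linear from 0) in each library (horizontal axis, groups parted by grey lines). C1qa and C1qc stayed between 0.756 and 1.06 of C1qb, and Fga over Fgb ran from 0.142 in combination 2 to 0.475 in anti-PD-1 3.

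Plg, the precursor of the fibrin-dissolving protease plasmin, had 122, 92.1 and 83.8 CPM in untreated replicates 1 to 3, 199.8, 60.5 and 61.98 in mIFNalpha, 138, 51.99 and 409 in anti-PD-1, and 319, 78.5 and 104 in combination. Anti-PD-1 replicate 3 and combination replicate 1 were the highest, and the change was 1.01 ± 0.75, adjusted p = 0.36 with anti-PD-1. Kng1, the kininogen that releases bradykinin and has the copy Kng2, had 477, 428 and 379 CPM in untreated replicates 1 to 3, 718, 449 and 462 in mIFNalpha, 314, 176 and 579 in anti-PD-1, and 417, 203 and 203 in combination. Combination values were below all mIFNalpha values (-0.99 ± 0.40, adjusted p = 0.17). Among the anticoagulants, Proc had 157, 149.7 and 129 CPM in untreated replicates 1 to 3, 101, 137 and 149 in mIFNalpha, 95.2, 88.8 and 126 in anti-PD-1, and 120.1, 89.2 and 87.8 in combination. All anti-PD-1 and combination values were below all untreated values (-0.49 ± 0.18, adjusted p = 0.089 and -0.55 ± 0.18, adjusted p = 0.068), beside 18.5% and 24.8% of all genes with this pattern on the lower side. Pros1 had 57.5, 46.1 and 54.5 CPM in untreated replicates 1 to 3, 62.7, 61.8 and 66.7 in mIFNalpha, 62.9, 51.5 and 80.7 in anti-PD-1, and 65.04, 56.6 and 62.3 in combination and was higher in every mIFNalpha than in any untreated library (0.27 ± 0.15, adjusted p = 0.92). Serpinc1, antithrombin, had 47.3, 44.5 and 59.3 CPM in untreated replicates 1 to 3, 106, 44.2 and 40.2 in mIFNalpha, 105, 47.5 and 343 in anti-PD-1, and 248, 53.3 and 91.99 in combination, with anti-PD-1 replicate 3 and combination replicate 1 far above the others. Serpind1, heparin cofactor II, had 102, 55.1 and 47.1 CPM in untreated replicates 1 to 3, 26.8, 42.8 and 44.5 in mIFNalpha, 31.4, 13.1 and 49.7 in anti-PD-1, and 56.5, 24.9 and 19.5 in combination. It was lower in every mIFNalpha than in any untreated library (-0.84 ± 0.50, adjusted p = 0.92) and highest in untreated replicate 1. Pi4ka overlaps it on the other strand.

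None of the 44 members was called with mIFNalpha alone by edgeR: 0% of all 14330 genes were called, 757 genes and 0 members had an unadjusted p below 0.05, limma called 0 genes, and DESeq2 called 12 genes higher and 14 lower with 0 members among them. Of the 44 members 37 were fitted higher, against 51.8% of all genes, and the median log2 fold change was 0.26 for liver-secreted and 0.29 for leukocyte-made members. The smallest p-values among members were those of C5ar1 (0.73 ± 0.39, adjusted p = 0.92), Pros1 and C3ar1 (0.79 ± 0.48, adjusted p = 0.92). Values did not overlap on the higher side for C8b, Mbl1, F7, Fgb, Fgg and Pros1 (4.96% of all genes) and on the lower side for Serpind1 (5.22%).

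The combination was set against each agent alone. Against anti-PD-1, edgeR called 0 members and 0% of all genes, with 750 genes and 1 member, F11, at an unadjusted p below 0.05. limma called 0 genes, and DESeq2 called 10 genes higher and 12 lower with 0 members among them. Of the 44 members 8 were fitted higher in the combination, against 46.9% of all genes. The values of 0 members did not overlap on the higher side (7.49% of all genes) and those of F11 on the lower side (6.66%). The liver-secreted members had a median of -0.26, and anti-PD-1 replicate 3 was the highest library in 28 of the 35. Against mIFNalpha, F3 rose and F11 fell, the only members among the 1.65% of all genes called in either direction. Values did not overlap for 7 of the 35 liver-secreted members on the higher side and 5 on the lower, beside 20.3% and 16.4% of all genes, which is near the share in all genes. The 6 leukocyte-made members did not overlap between these groups, beside 20.3% of all genes on the higher side, and had a median of 1.37, but 0 were called by edgeR or limma. All 6 had an unadjusted p below 0.05, as had 3436 of all 14330 genes. DESeq2 called all 6 higher, where it called 834 of all genes higher and 823 lower. C5ar1 came closest (1.30 ± 0.35, adjusted p = 0.072). Fgb was lower in all combination than in all mIFNalpha libraries (-0.96 ± 0.24, adjusted p = 0.063).

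The interaction term asks whether the effect of anti-PD-1 differed with and without mIFNalpha. edgeR called 0 members and 0% of all genes, with 860 genes and 1 member (F11, -0.71 ± 0.24, adjusted p = 0.81) at an unadjusted p below 0.05. limma called 0 genes and DESeq2 called 52 above and 9 below 0 with 0 members among them. The fitted term was above 0 for 4 of 44 members, against 46% of all genes. Both anti-PD-1 replicate 3 and mIFNalpha replicate 1 enter this term.

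The values of the liver-secreted genes differed with and without the libraries rich in adult hepatocyte markers. Without mIFNalpha replicate 1, anti-PD-1 replicate 3 and combination replicate 1, left out together after the data were seen, the median of the 35 genes with anti-PD-1 was 0.24 in place of 1.01. Then 3 rose and 4 fell, beside 6.12% and 3.8% of all genes. Those that fell were Fga (-0.94, adjusted p = 0.021), Fgb (-0.64, 0.025), Fgg (-0.82, 0.015) and Proc (-0.64, 0.016). With the combination the median was 0.29 in place of 0.73, and 8 rose and 8 fell, beside 12.5% and 8.1% of all genes. The 8 that rose were C1ra, C2, C6, C8a, C8b, C8g, Mbl1 and Vtn, all of complement. The 8 that fell were F2, F11, Fga, Fgb, Fgg, Kng1, Proc and Serpind1, all of coagulation. Among them Fga changed by -1.23 (adjusted p = 0.0035) and Fgg by -0.97 (0.0019), and Mbl1 by 2.27 (0.0041). The leukocyte-made members had a median of 1.09 with anti-PD-1, with 5 of 6 called, and of 1.66 with the combination, with 6 of 6 called. Against mIFNalpha 4 leukocyte-made members were called higher, and of the liver-secreted members 1 (C1ra) was called higher and 7 lower, beside 2.5% and 1.68% of all genes. Each treated group then held 2 libraries. All 3 libraries left out were in treated groups and were chosen for their high hepatocyte markers. Lower values of liver genes without them thus follow in part from that choice, and these calls are no independent test of a split. The split between complement and coagulation was not the same in other fits. By DESeq2 on all 12 libraries, F9 was called higher with the combination, together with complement genes. F7 and F9 were called higher with anti-PD-1 by DESeq2, again with complement genes. Without anti-PD-1 replicate 2, F7, F9, F10, Pros1 and Serpinc1 were among those called higher with anti-PD-1.

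A further 53 genes of the same cascades were read, and 48 were tested. With anti-PD-1 7 rose and 3 fell, beside the 9.88% and 5.09% of all genes, and with the combination 6 rose and 3 fell, beside 7.99% and 5.08%. Itgam and Itgb2, the chains of complement receptor CR3 on myeloid cells, rose with anti-PD-1 by 2.33 ± 0.48, adjusted p = 0.021 and 2.16 ± 0.48, adjusted p = 0.022. They also rose with the combination by 1.78 ± 0.48, adjusted p = 0.037 and 1.78 ± 0.48, adjusted p = 0.038. Colec11 and Colec12, collectins that bind sugars, rose with anti-PD-1 (1.46 ± 0.36, adjusted p = 0.028 and 2.09 ± 0.52, adjusted p = 0.029) and with the combination (1.23 ± 0.36, adjusted p = 0.049 and 1.91 ± 0.52, adjusted p = 0.039). Cpb2, the plasma carboxypeptidase that protects fibrin, rose with anti-PD-1 (3.46 ± 0.88, adjusted p = 0.03) and the combination (3.36 ± 0.87, adjusted p = 0.035) and was highest in anti-PD-1 replicate 3. C7, of the membrane attack complex, had 0, 0 and 0.122 CPM in untreated and 0.139 to 2.598 CPM in anti-PD-1 libraries, and F2rl2, a thrombin receptor, stayed under 0.41 CPM, so that neither fold is given.

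The genes of this wider list that fell included Serpinf2, Plat and Anxa2, of fibrinolysis and its control, and C1s2, of complement. Serpinf2, the inhibitor of plasmin, had 755, 567 and 442 CPM in untreated replicates 1 to 3, 298, 544 and 608 in mIFNalpha, 189, 113 and 249 in anti-PD-1, and 208, 158 and 97.3 in combination. Every anti-PD-1 and combination value was below every untreated and mIFNalpha value, and it fell with anti-PD-1 (-1.68 ± 0.37, adjusted p = 0.022) and with the combination (-1.93 ± 0.38, adjusted p = 0.016). Plat, the tissue plasminogen activator, had 632, 414 and 438 CPM in untreated replicates 1 to 3, 443, 416 and 392 in mIFNalpha, 367, 219 and 183 in anti-PD-1, and 294, 355 and 306 in combination and fell with anti-PD-1 (-0.95 ± 0.24, adjusted p = 0.029). C1s2, a C1 protease that resembles C1s1, fell with anti-PD-1 (-0.77 ± 0.18, adjusted p = 0.026). Anxa2, a plasminogen receptor, fell with the combination (-0.42 ± 0.13, adjusted p = 0.049996). That call was lost in 15 of 22 alternatives and the call of Colec11 with the combination in 11, and for the other folds given here as called the number lost ran from 3 to 9.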

How the data were processed

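RNA sequencing of 12 libraries in 4 treatment groups of 3 was read. The deposited table of raw counts gives whole numbers per gene, and a second deposited table gives FPKM for the same 21878 genes. Per the submitters' processing notes the tools were HISAT2 2.1.0, HTSeq and Cufflinks with the mm10 assembly; no source used here gives the tool behind each table, the annotation or the strand setting. Reads of overlapping genes and of near-identical copies could therefore be shared between them.

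Low counts were removed by filterByExpr (minimum count 10), leaving 14330 genes. Scaling was by TMM. The test was edgeR 4.0.16's robust quasi-likelihood F test in R 4.3.3. All 12 libraries entered 1 fit with a mean for each group, from which 5 pairs of groups and the interaction were tested. Benjamini-Hochberg adjustment covered all tested genes, 0.05 was the threshold, and only the rows of the members and listed pathway genes are given. Depth was 31.3 to 38.5 M counts per library, at which 3 counts equal 0.0778 to 0.0958 CPM, for counting error only. Errors beside fold changes are standard errors from the fit. The pipeline was tested on simulated data.

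Members called in any comparison are named with all values, then those with the smallest p, and up to 6 pathway genes per direction, of which 1 is not reported here. The members and lists were chosen with earlier results of these data known, and the sex-biased liver genes after the values were seen. Alternatives were RLE size factors, no filter, only the groups compared, a block for the replicate number, DESeq2 1.42.0, limma 3.58.1 on log2(FPKM + 1) or log2(FPKM + 0.1) with a minimum FPKM of 1 or none, each library left out, and 2 or 3 libraries left out together. Coordinates are from GENCODE M21 (GRCm38), where all 45 members matched by symbol. Promoter windows are from RefSeq (GRCm38.p6), where 34 of 45 members matched.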

Additional observations from a re-analysis of the deposited data

How the results depend on the processing

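Call counts are given as edgeR's value first. With anti-PD-1 against untreated libraries, the leukocyte-made calls (6) were 0 in a fit of only the groups compared and 2 by limma on unfiltered FPKM. The liver-secreted rises (4) were 1 without the filter, 0 with only the groups compared, 12 by DESeq2, and 0, 2 and 0 by limma with a pseudocount of 1, of 0.1 and without a filter. F3 alone of other source (1) was 0 with only the groups compared and 2 by DESeq2. With mIFNalpha 1 and anti-PD-1 3 left out together, liver-secreted rises were 0 and falls (0) were 2. With combination 1 left out as well, chosen after seeing the data, falls were 4. Over all genes, calls higher (1416) were 1284 without the filter, 0 with only the groups compared and 2113 by DESeq2. By limma they were 661, 732 and 541 in the order above. Without 2 and without 3 libraries, calls higher over all genes were 943 and 875, and calls lower (730) were 671 and 544.

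For the combination against untreated libraries, leukocyte-made calls (5) were 2 without the filter and 2 by limma on unfiltered FPKM. Liver-secreted rises (1) were 9 with only the groups compared, 7 by DESeq2, 2 by limma with 0.1, 0 by limma without a filter, 10 without 2 and 8 without 3 libraries. Liver-secreted falls (1) were 3 with only the groups compared, 3 by DESeq2, 0 in each of the limma fits, 3 without 2 and 8 without 3 libraries. Over all genes, calls higher (1145) were 979 without the filter, 2121 with only the groups compared and 1784 by DESeq2. They were 810, 877 and 1011 in the limma fits, 2350 without 2 and 1788 without 3 libraries. Calls lower (728) were 1839 with only the groups compared and 1260 by DESeq2. They were 205, 209 and 207 in the limma fits, 1955 without 2 and 1159 without 3 libraries. Against mIFNalpha, leukocyte-made calls (0) were 6 with only the groups compared, 6 by DESeq2, 5 without 2 and 4 without 3 libraries. Liver-secreted rises (0) were 2, 2, 1 and 1 and falls (1) were 2, 2, 4 and 7 in the same order, with 0 falls in each of the limma fits. Over all genes, calls higher (115) were 874, 834, 883 and 358 in that order, and calls lower (122) were 392, 823, 771 and 240. The limma fits called 44, 46 and 39 of all genes lower.

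The replicate number as a block gave 3 leukocyte-made calls for the combination against mIFNalpha and 3 liver-secreted rises against untreated libraries, and the other counts of members stayed within 1.5 times. Over all genes the block gave 623 and 1503 calls higher in these comparisons. Whether the numbers pair the samples is not known, since the labels do not say and 3 correlations a comparison are too few to decide. Same-number correlations ran from -0.30 to 0.50, and no comparison had 3 above 0.1. For anti-PD-1 against untreated libraries they were -0.02, 0.35 and 0.43.

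Leaving out each library gave, for anti-PD-1, 0 to 6 leukocyte-made calls, 0 to 13 liver-secreted rises, 0 to 1 falls and 0 to 2 of other source. For the combination against untreated libraries it gave 0 to 6, 0 to 10, 0 to 3 and 0 to 1, and against mIFNalpha 0 to 5, 0 to 4, 0 to 4 and 0 to 1. Over all genes the calls higher in these fits ran from 4 to 2066, 46 to 1920 and 13 to 1109 in the same order of comparisons. The cause of these shifts was not tested. No change of a member that edgeR called reversed its direction in another fit. Fga with anti-PD-1, not called at 0.33, was -0.94 and called without 3 libraries. With RLE size factors every count of members was the same. The interaction could not be fitted to fewer than 4 groups. With 3 libraries a group, 1 library could decide a count.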
